A study of Homo sapiens with 2 samples.

Results

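The genes described here had at least 5 counts per 1000000 counts (CPM) in the RNA sequencing library labelled DR and a CPM there of at least 8 times the CPM plus 0.1 in the library labelled WT. CPM is a gene's count divided by its library's total count and multiplied by 1000000. Of 18267 genes with counts, 11137 had at least 5 CPM in the DR-labelled library, and 125 of these, or 1.12%, met the fold threshold. The definition leaves out genes of chromosome Y and 5 genes by name, PPP1R16B, FAT1, NPNT, SLFN11 and SEMA4A, which removed 9 of the 125. The remaining 116 genes are the members, and all of them are protein coding. The members were chosen by their CPM in both libraries, so their levels and fold differences are given as a description with no test, and nothing is supported with them.

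The study asked which genes differ in expression between A375 cells resistant to dacarbazine (DTIC), a drug that alkylates DNA, and wild-type control cells. A375 is an established human melanoma cell line. There was 1 library in each group, so no spread between replicates is known and every value below compares these libraries, not the conditions. The labels put the DR library and the WT library in the same line, cell type (melanoma) and tissue (skin), in DMEM medium with 10% serum, as total RNA taken with Trizol. The protocol in the labels gives 105 days of the drug for both libraries, the WT-labelled library included, while the study's methods describe rising doses for the DR cells alone. The resistant cells were those viable after the last passage, with no mention of clones.

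Which count column belongs to which library rests on the sample descriptions. The column names differ by 1 punctuation mark, and the DR sample's title is close to each of them while the WT sample's title is close to neither. Every direction below rests on these labels, and where CPM values are joined by the word against, the DR-labelled library comes first. The depth was 54878355 counts in the DR-labelled library and 35294670 in the WT-labelled library, so 3 counts were worth 0.0547 and 0.0850 CPM.

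The labelled cell type was checked against marker genes. Of 17 melanocytic markers 15 had counts, and their median was 0.915 CPM in the DR-labelled library and 0.734 CPM in the WT-labelled library. MITF, the master regulator of melanocytes, had 35.0 and 34.3 CPM, while SOX10, its upstream partner in the neural crest lineage, had 3 counts and 0 counts. TYRP1, a pigment enzyme, had 0 and 17 counts. PMEL had 4.52 and 2.32 CPM, and MC1R had 4.41 and 7.59 CPM. Of 20 markers of plasma cells, the antibody-secreting cells of the B lineage, 17 had at least 5 CPM in each library, with medians of 185 and 173 CPM. The highest of these, IGLL5 and JCHAIN, had 7884 and 4737 CPM and 2037 and 2881 CPM. The low melanocytic markers, taken with the high plasma cell markers, thus went against the label melanoma in both libraries. The libraries are named here by their group labels alone.

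No member belonged to any of the 11 cell type marker lists that were examined. Among all counted genes 0.635% were members, so a count of 0 in lists this short says nothing about a cell type. The medians of the other lists, DR-labelled first, were 4.80 and 3.68 CPM for B cells, 0.969 and 1.05 CPM for T and NK cells, 1.07 and 0.878 CPM for monocytes and macrophages, and 0.0474 and 0.127 CPM for granulocytes and mast cells. For erythroid cells and megakaryocytes they were 0.419 and 0.198 CPM, for endothelial cells 2.11 and 1.96 CPM, for fibroblasts 0.897 and 0.0567 CPM, for epithelial cells 7.73 and 4.75 CPM, and for neural cells 0.374 and 0.217 CPM. In a bulk library, fewer cells of a type and less RNA per cell cannot be told apart.

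Cells read their surroundings and each other with proteins that only some lineages make. Chemokines are small secreted proteins that guide leukocytes through receptors coupled to G proteins, and cytokine receptors pass growth and survival signals into the cell. The extracellular matrix is the network of secreted proteins and proteoglycans that cells adhere to. Lineage transcription factors set which of these genes are on, and they are commonly silent outside their lineage. The members came from all of these groups.

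Across the 116 members the median level was 13.1 CPM in the DR-labelled library, with a range of 5.01 to 249.6 CPM. In the WT-labelled library it was 0.595 CPM, with a range of 0 to 22.9 CPM. The members were not all nearly absent from the WT-labelled library: 75 of the 116 had less than 1 CPM there, 31 had 1 to 5 CPM and 10 had at least 5 CPM. Just 5 members had 0 counts and 10 more had 1 to 3 counts. CCL3 and ST6GAL1 were above 13.2 CPM, the median of all counted genes in that library, with 22.9 and 15.1 CPM. The members held 0.321% of the counts of the DR-labelled library and 0.0191% of those of the WT-labelled library.

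**Figure D1:**
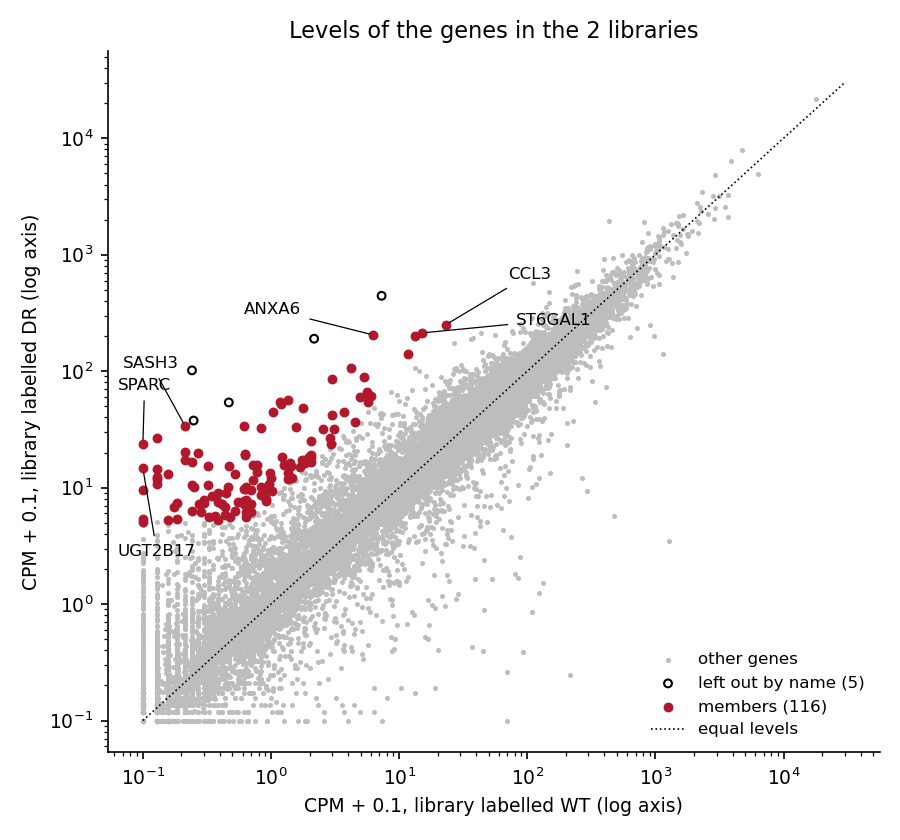
CPM plus 0.1 of each gene in the WT-labelled library (x axis) and the DR-labelled library (y axis), both on log axes, without chromosome Y and XIST. Red points are the 116 members, open circles are the 5 genes left out by name, grey points are other genes and the dotted line marks equal levels. The members lie above the line by construction, from 5.01 to 249.6 CPM on the y axis and from 0 to 22.9 CPM on the x axis.

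The fold threshold cut through a continuous range of values. The ratio of the definition had a median of 15.5 over the members, with 55 members at 16 or more, 31 at 32 or more and 21 below 10. Just inside the fold threshold were NDNF at 8.01, CFC1 at 8.07 and SPINK2 at 8.200. Just outside it were SCNN1B at 7.96, PHACTR1 at 7.87 and C11orf96 at 7.86. On the CPM threshold, CBLN2 at 5.01, RIMS2 at 5.12 and C10orf128 at 5.19 CPM were just inside, and ARNT2 at 4.92, ARMCX2 at 4.85 and TRAT1 at 4.83 CPM were just outside. Folds in the following paragraphs are plain ratios of the 2 CPM values, with a 95% Clopper-Pearson interval that covers the counting of reads alone. By that interval, 23 members had a lower bound under 8. For members with 0 counts in the WT-labelled library the fold is taken against a floor of 3 counts, with the lower end of the interval, which lies below it, beside it. Members with counts above 0 but below that floor keep plain folds, which cannot be ranked beside folds against the floor. Against the floor, PDLIM3 had 315-fold, RBM24 143-fold and GPC4 137-fold.

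Chemokines and immune receptors, with the membrane protein LAMP5 placed among them, made up 11 of the members. Their median was 44.3 CPM in the DR-labelled library and 1.25 CPM in the WT-labelled library. CCL3, the chemokine also called MIP-1 alpha, which attracts leukocytes, had 249.6 CPM in the DR-labelled library and 22.9 CPM in the WT-labelled library, 10.9-fold (interval 10.1 to 11.7). Its gene copies CCL3L1 and CCL3L3 had 56.7 against 1.25 CPM and 44.3 against 0.937 CPM, differences of 45.5-fold (interval 33.8 to 62.8) and 47.3-fold (interval 33.6 to 68.96). The copies had close values in the WT-labelled library, where CCL3 kept more counts than both copies together.

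IL2RG, the common gamma chain that the receptors for IL-2, IL-4, IL-7, IL-9, IL-15 and IL-21 share, had 141 CPM in the DR-labelled library and 11.6 CPM in the WT-labelled library, 12.2-fold (interval 11.01 to 13.5). Of 42 interleukins and interleukin receptors with counts it was the single member, and 21 of the 42 had at least 5 CPM in the DR-labelled library against 19 in the WT-labelled library. The highest of that family in CPM, IL6ST and IL6R, the chains of the IL-6 receptor, had 259 against 258 CPM and 200.1 against 191 CPM. These receptor chains thus had nearly equal CPM in the libraries, unlike IL2RG. Of IL2RG's transcript sequence, read as 50-base words, 49.0% also lies in another annotated gene, so its reads may be shared.

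LAMP5, a lysosome-associated membrane protein of plasmacytoid dendritic cells and neurons, had 88.2 against 5.18 CPM, 17.02-fold (interval 14.7 to 19.8). CD177, a glycoprotein of the neutrophil surface, had 59.8 against 4.87 CPM, 12.3-fold (interval 10.5 to 14.4). SLAMF6, a homophilic receptor of lymphocytes, had 18.9 against 0.529 CPM, and XCR1, the receptor for the chemokine XCL1, had 15.4 against 1.17 CPM. TREML2, a receptor of the TREM family, had 10.02 against 0.361 CPM. Except for CD177 and LAMP5, these proteins were at or below 1.17 CPM in the WT-labelled library.

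HLA-DRB3 and HLA-DRB5 encode beta chains of HLA-DR, the MHC class II molecule that presents peptides to CD4+ T cells. They had 18.9 against 1.97 CPM and 6.07 against 0.184 CPM. Their relative HLA-DRB1, no member, had 146 against 43.9 CPM, HLA-DRB4 had 6.62 against 3.54 CPM, and HLA-DRA, the alpha chain, had 474 against 147 CPM. Summed over the 4 DRB genes, the level was 177 against 49.6 CPM, and the ratio of the definition was 3.57. In GENCODE release 29, 8.42% of HLA-DRB5's 50-base words lie in HLA-DRB1, and HLA-DRB3 was not found. How reads were shared out among these genes is not stated, so the separate values of HLA-DRB3 and HLA-DRB5 are uncertain.

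The marker lists of the leukocytes that carry such receptors had these summed levels in the DR-labelled and the WT-labelled library. The 15 B cell markers summed to 309 and 192 CPM, the 15 T and NK cell markers with counts to 449 and 298 CPM, and the 14 monocyte and macrophage markers with counts to 93.8 and 83.1 CPM. Single genes made up most of the latter sums. CD8B alone had 418 and 266 CPM, while the T and NK cell medians were 0.969 and 1.05 CPM. CD68 alone had 57.4 and 59.4 CPM of the monocyte and macrophage sums. The 8 granulocyte and mast cell markers with counts summed to 3.57 and 3.73 CPM. MS4A1 (CD20), a surface protein of B cells, had 2.86 and 0.227 CPM. The part of other cells in the immune members was not tested.

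Leukocyte cytosolic and antiviral proteins were 9 further members, with a median of 33.7 CPM in the DR-labelled library and 1.87 CPM in the WT-labelled library. The secreted enzyme CECR1 was placed in this group too. ANXA6, an annexin that binds phospholipids in the presence of calcium, had 204 CPM in the DR-labelled library and 6.205 CPM in the WT-labelled library, 32.9-fold (interval 28.8 to 37.8). RGS1, which ends G protein signalling downstream of chemokine receptors in lymphocytes, had 106 against 4.08 CPM, 26.1-fold (interval 22.1 to 30.96). CECR1, now named ADA2, a secreted adenosine deaminase of myeloid cells, had 66.6 against 5.52 CPM. NCF1, the p47 subunit of the phagocyte NADPH oxidase, had 44.4 against 3.598 CPM, but 42.1% of its 50-base transcript words also lie in other genes, chiefly its copy NCF1B.

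SASH3, an adaptor of lymphocytes, had one of the widest gaps among the members. Its level was 33.7 CPM in the DR-labelled library and 0.113 CPM in the WT-labelled library, where 4 counts remained, 297-fold (interval 116 to 1092). GCSAM, a germinal centre protein that signals with B cell receptors, had 32.7 against 0.737 CPM, 44.4-fold (interval 30.2 to 68.1). The antiviral genes OAS3, APOBEC3H and SLFN12, an oligoadenylate synthetase, a cytidine deaminase and a member of the Schlafen family, had 18.1 against 1.87 CPM, 9.26 against 0.921 CPM and 7.35 against 0.285 CPM. All 3 antiviral genes were at or below 1.87 CPM in the WT-labelled library.

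Adhesion, junction and sheddase proteins were 8 members, with medians of 25.1 and 1.07 CPM. ADAM8, a metalloprotease that cuts surface proteins off leukocytes, had 199.8 CPM in the DR-labelled library and 13.1 CPM in the WT-labelled library, 15.2-fold (interval 13.8 to 16.7). Its relative ADAM28, a metalloprotease of lymphocytes, had 33.1 against 1.47 CPM, 22.5-fold (interval 17.1 to 30.2). PERP, a desmosomal membrane protein and p53 target, had 85.01 against 2.92 CPM, 29.1-fold (interval 23.96 to 35.8), and ITGA8, an integrin alpha chain that binds matrix proteins with the RGD motif, had 47.9 against 1.68 CPM, 28.5-fold (interval 22.2 to 37.8). Of these, ADAM8 alone had more than 5 CPM in the WT-labelled library.

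GJA1, the gap junction protein connexin 43, had 17.02 against 0.113 CPM, with 4 counts in the WT-labelled library and a difference of 150.2-fold (interval 58.5 to 552). CDH4, or R-cadherin, had 15.6 against 0.680 CPM, 22.9-fold (interval 15.3 to 35.9), and it was the single member among 37 cadherins and protocadherins with counts. ASTN1, an adhesion protein of migrating neurons, had 8.41 against 0.247 CPM, and CLDN10, a tight junction claudin, had 5.48 against 0.543 CPM. Of CLDN10's transcript sequence, 45.4% also lies in transcripts of DZIP1, the adjacent gene, so its reads may be shared.

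Secreted and matrix proteins were 21 members, with medians of 11.7 and 0.595 CPM. In the WT-labelled library 64.7% of all members and 13 of these had less than 1 CPM. SPARC, or osteonectin, a calcium-binding glycoprotein of the matrix and basement membranes, had 23.7 CPM in the DR-labelled library and 0 counts in the WT-labelled library. The difference was 279-fold against the floor (interval from 227). CBLN2, a secreted organizer of synapses, had 5.01 CPM against 0 counts, 58.95-fold against the floor (interval from 47.6). GPC4, a heparan sulphate proteoglycan of the cell surface, had 11.7 against 0.0283 CPM, the latter from 1 count, with a difference of 412-fold (interval 73.6 to 16283).

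QPCT, the enzyme that forms pyroglutamate at the ends of secreted peptides, had 54.6 against 1.08 CPM, 50.8-fold (interval 36.9 to 71.9). BRINP2, a neuronal secreted protein, had 52.1 against 1.105 CPM, 47.2-fold (interval 34.4 to 66.5). Among structural matrix proteins, EMILIN1 of elastic fibres had 13.1 against 0.878 CPM, TGFBI 9.51 against 0.595 CPM, the brain proteoglycan BCAN 17.2 against 1.76 CPM, and FREM2 of epithelial basement membranes 7.797 against 0.539 CPM. The matrix regulators ADAMTS2, a procollagen protease, and SMOC1, a calcium-binding basement membrane protein, had 9.99 against 0.845 CPM and 7.27 against 0.198 CPM. The folds of these 6 matrix members ranged from 9.78-fold for BCAN to 36.7-fold for SMOC1.

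NDNF, a secreted neurotrophic protein, had 23.5 against 2.83 CPM, 8.29-fold (interval 6.76 to 10.3). C1R, a protease that starts the classical complement pathway, had 14.8 against 1.59 CPM, and the protease inhibitor SPINK2 had 11.97 against 1.36 CPM. NRN1, a neuritin anchored by lipid, had 9.69 against 0.510 CPM, ISLR 5.704 against 0.340 CPM, and the sulphatase ARSI 5.48 against 0.227 CPM. CFC1 and CFC1B, near-identical genes for Cryptic, a Nodal co-receptor in left-right patterning, had 16.7 against 1.96 CPM and 31.6 against 2.46 CPM. SFTPA1 and SFTPA2, which encode surfactant protein A of the lung, a collagen-like lectin of innate defence, had 9.93 against 0.536 CPM and 7.11 against 0.172 CPM.

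Transcription and RNA-binding factors were 9 members, with medians of 10.7 CPM in the DR-labelled library and 0.224 CPM in the WT-labelled library. All 9 had less than 1 CPM in the WT-labelled library, as did 64.7% of all members. The fold threshold caps that value by the DR-labelled level, so low values there follow in part from the definition. EYA4, a phosphatase and coactivator in eye, ear and muscle development, had 9.46 CPM against 0 counts, 111-fold against the floor (interval from 90.2). PAX1, a paired box factor of the axial skeleton and thymus, had 19.97 against 0.113 CPM, from 4 counts in the latter, 176-fold (interval 68.6 to 648). FEZF1, a zinc finger factor of the forebrain and olfactory system, had 13.1 against 0.0567 CPM from 2 counts, 231-fold (interval 63.7 to 1910.2). RBM24, an RNA-binding splicing regulator of muscle, had 12.1 against 0.0283 CPM from 1 count, 428-fold (interval 76.5 to 16918).

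PRRX1, a homeobox factor of mesenchymal cells, had 8.89 against 0.283 CPM, 31.4-fold (interval 16.9 to 65.9). The zinc finger genes ZNF521, ZNF385B and ZNF608 had 11.5 against 0.623 CPM, 10.7 against 0.861 CPM and 10.4 against 0.224 CPM. HEYL, a repressor downstream of Notch, had 6.03 against 0.538 CPM, and it was the single member among 21 Notch ligands, receptors and targets, of which NOTCH2 had 444 against 368 CPM and NOTCH1 211 against 186 CPM.

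Receptors and intracellular signalling proteins were 21 members, with medians of 16.2 and 1.25 CPM. WLS, the carrier that brings Wnt proteins to the cell surface, had 19.8 against 0.170 CPM, from 6 counts in the WT-labelled library, 116-fold (interval 53.3 to 318). ROR2, a receptor for WNT5A, had 15.2 against 1.33 CPM, and DAAM2 and ANKRD6, which act in Wnt signalling inside the cell, had 6.24 against 0.142 CPM and 5.46 against 0.381 CPM. All 4 of these Wnt-related members were higher in the DR-labelled library by construction, with folds from 11.4-fold for ROR2 to 116-fold for WLS. The share of Wnt-related genes among all genes at the CPM threshold is not given here.

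Receptors coupled to G proteins and their alpha subunits formed another group. HRH2, the histamine H2 receptor, had 41.9 against 2.92 CPM, 14.4-fold (interval 11.8 to 17.7). GNAI1, an inhibitory alpha subunit, had 15.6 against 0.623 CPM, and GNAQ, the alpha subunit that activates phospholipase C, had 7.71 against 0.198 CPM, from 7 counts in the latter. With RGS1 and XCR1, they are 5 members described here that act at receptors of this class. The share of such genes among all genes at the CPM threshold is not given here, so this count says nothing about the class.

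Regulators of small GTPases included the DENN-domain exchange factors for Rab proteins, DENND1C, DENND2C and ST5, now named DENND2B. They had 31.9 against 3.003 CPM, 18.4 against 1.12 CPM and 25.2 against 1.97 CPM. PSD3, an exchange factor for ARF6, had 61.2 against 5.98 CPM, 10.2-fold (interval 8.91 to 11.8), and ARHGEF6, an exchange factor for RAC1 and CDC42, had 26.8 against 2.78 CPM. The scaffold proteins CNKSR1 and CNKSR3 had 13.5 against 0.680 CPM and 13.1 against 1.25 CPM. The folds of the DENN and CNKSR members lay between 10.5-fold for CNKSR3 and 19.8-fold for CNKSR1.

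DDIT4L, an inhibitor of mTOR signalling, had 33.8 against 0.510 CPM, 66.4-fold (interval 41.9 to 112). GFRA1, the receptor for GDNF, had 6.68 against 0.0745 CPM, the latter from 2.63 counts. The ubiquitin ligases RNF182 and NEURL1 had 53.9 against 5.64 CPM and 16.2 against 1.74 CPM. PHLDA1 and PLEKHA6, each with a pleckstrin homology domain, had 36.8 against 4.38 CPM and 7.42 against 0.453 CPM. Of these 6, RNF182 and PHLDA1 kept more than 4 CPM in the WT-labelled library.

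Enzymes of metabolism and glycosylation were 12 members. In the WT-labelled library 64.7% of all members and 11 of these enzymes had less than 1 CPM. The exception was ST6GAL1, the transferase that adds sialic acid in alpha-2,6 linkage to glycoproteins and is abundant in B cells, with 213 CPM in the DR-labelled library and 15.1 CPM in the WT-labelled library, 14.1-fold (interval 12.9 to 15.4). UGT2B17, which joins glucuronic acid to steroids, had 14.5 CPM against 0 counts, 171-fold against the floor (interval from 138). Its relative UGT2B15, no member, had 1.29 against 0.175 CPM, and 27.5% of UGT2B17's transcript words lie in UGT2B15. HK1, the hexokinase that starts glycolysis in most tissues, had 15.2 against 0.373 CPM, 40.7-fold (interval 23.97 to 77.7).

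CSGALNACT1, which starts chondroitin sulphate chains, had 12.1 against 0.891 CPM. ELOVL4, an elongase of very long chain fatty acids, had 10.4 against 0.142 CPM, 73.7-fold (interval 31.4 to 228), and MARC2, a mitochondrial reductase now named MTARC2, had 7.305 against 0.0850 CPM from 3 counts. CPS1, the first enzyme of the urea cycle, had 7.64 against 0.510 CPM, and ACPP, the prostatic acid phosphatase now named ACP3, had 8.94 against 0.348 CPM. MOXD1, RENBP and HYI had 9.13 against 0.793 CPM, 7.09 against 0.312 CPM and 5.57 against 0.263 CPM. GSTM2, a glutathione transferase, had 6.18 against 0.423 CPM, while its neighbour GSTM1 had 1.49 against 8.12 CPM, the opposite order, and the 4 GSTM genes together had 20.7 against 18.03 CPM.

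Channels, calcium sensors and exocytosis proteins were 11 members, with medians of 8.60 and 0.530 CPM. SCN3A, a voltage-gated sodium channel, had 19.3 against 0.530 CPM, 36.5-fold (interval 22.9 to 59.9), while SCN2A, the next gene along the chromosome, had 0.580 against 11.4 CPM, the opposite order. SCNN1G, the gamma subunit of the epithelial sodium channel, had 17.9 against 1.95 CPM, 9.21-fold (interval 7.18 to 11.9), and the adjacent beta subunit gene SCNN1B had 106 against 13.2 CPM, just outside the threshold. DPP6, an auxiliary subunit of potassium channels, had 15.2 against 0.222 CPM, 68.5-fold (interval 33.9 to 156).

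KCNQ3, a subunit of the M-current channel, had 8.600 against 0.737 CPM, and it was the single member among 35 voltage-gated potassium channel genes. KCNJ15, an inward rectifier, had 6.09 against 0.595 CPM. RYR2, the calcium release channel of heart muscle, had 7.599 against 0.822 CPM, and CLIC5, of the chloride intracellular channel family, had 10.04 against 0.737 CPM. The neuronal calcium sensors HPCAL4 and NCALD had 7.18 against 0.510 CPM and 6.76 against 0.340 CPM. SYTL2 and RIMS2, which bind RAB27 and RAB3 in exocytosis, had 10.1 against 0.151 CPM and 5.12 against 0.0567 CPM, the latter value of RIMS2 from 2 counts.

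Cytoskeletal and other proteins were the last 14 members. PDLIM3, a PDZ and LIM protein of muscle actin, had 26.8 against 0.0283 CPM, the latter from 1 count, 944-fold (interval 169 to 37316). MAL2, a transport protein of epithelial membranes, had 14.5 against 0.0283 CPM, and MAP9, a microtubule protein of the spindle, 10.7 against 0.0283 CPM, each with 1 count in the WT-labelled library. DPYSL3, a collapsin response mediator, had 16.5 against 0.142 CPM, 117-fold (interval 49.9 to 361). SEPT10, now named SEPTIN10, a filament-forming GTPase, had 60.4 against 5.75 CPM, 10.5-fold (interval 9.12 to 12.2), and was the member of this group with the most counts in the WT-labelled library.

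SOWAHC had 16.2 against 1.32 CPM, C16orf54 17.01 against 1.64 CPM, CEND1 13.05 against 0.425 CPM, MYEOV 9.58 against 0.538 CPM and KIAA1549L 7.85 against 0.822 CPM. TMEM42 had 7.09 against 0.595 CPM, C10orf128, now TMEM273, 5.19 against 0.283 CPM and RGAG4, now RTL5, 5.25 against 0.0850 CPM. CORO7-PAM16, a read-through of 2 adjacent genes, had 5.28 CPM against 0 counts. Its parts CORO7 and PAM16, no members, had 287 against 220 CPM and 19.7 against 20.3 CPM, and 97.0% of its transcript words lie in other genes. The 3 together had a ratio of 1.29, so the value of the read-through alone rests on how reads were shared out.

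**Figure D2:**
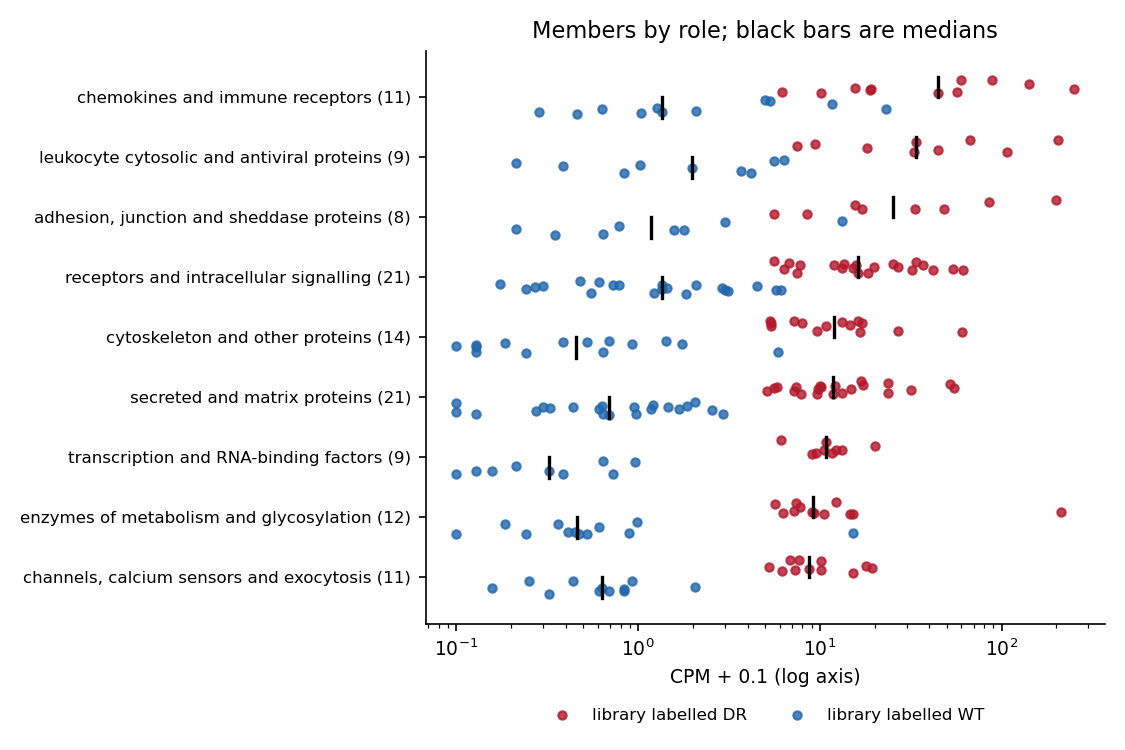
CPM plus 0.1 (x axis, log scale) of each member in the DR-labelled library (red) and the WT-labelled library (blue), by role, with the number of members in brackets. Black bars are medians, and the vertical scatter within a row has no meaning. Chemokines and immune receptors have medians of 44.3 and 1.25 CPM. All 9 transcription and RNA-binding factors are below 1 CPM in the WT-labelled library, as are 64.7% of all members. Low values in that library follow in part from the definition.

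Levels of different genes can be compared after division by gene length. On counts per length, the members' median percentile among all counted genes was 49.4 in the DR-labelled library and 23.1 in the WT-labelled library. All 11137 genes at the CPM threshold had medians at the percentiles 69.5 and 69.4. CCL3 was at percentile 99.1 and 83.7, the highest member in both libraries. The next members on this scale in the DR-labelled library were IL2RG at 95.8, RGS1 at 94.8, CCL3L1 at 94.2, ANXA6 at 94.1 and ADAM8 at 93.1. SPARC, without counts in the WT-labelled library, was at percentile 55.7 in the DR-labelled library, the middle of the range. The members' median length was 3454 bases against 3124 bases for all genes at the CPM threshold.

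Some members are copies or relatives of each other. By gene symbol, 3 members were CCL chemokines, and pairs came from the ADAM, CFC, CNKSR, DENND, HLA-DRB and SFTPA families. The zinc finger genes ZNF385B, ZNF521 and ZNF608 shared a symbol stem only, with no 50-base transcript word in another gene. The share of each symbol stem among all genes is not given here, so these counts say nothing about a family. Estimated counts were fractional in 1 or both libraries for 52 members, or 44.8%, against 53.9% of all genes at the CPM threshold. Of 114 members found in GENCODE release 29, 94 shared less than 10% of their 50-base transcript words with other genes, and 49 shared none. The 5 that shared at least 50% were CORO7-PAM16, CFC1 and CFC1B at 86.9% each, HYI at 81.8%, and CCL3 at 69.0%. CCL3L1 and HLA-DRB3 were not found in that release.

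Summed over copies, the CCL3 genes had 350.6 against 25.1 CPM, a ratio of 13.9. CFC1 and CFC1B together had 48.3 against 4.42 CPM, a ratio of 10.7, and SFTPA1 and SFTPA2 together had 17.04 against 0.708 CPM, a ratio of 21.1. The UGT2B genes together had a ratio of 17.9 and the GSTM genes 1.14. Thus 4 sums stayed past 8, while those of HLA-DRB, GSTM and the CORO7 read-through did not.

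The 250 bases upstream of the starts of 3 such pairs are shown because the members of each pair were chosen together and resemble each other there too. They are RefSeq sequences on GRCh38.p14, on the strand of the gene, while the submitters' processing notes name hg19 for the files. Capitals mark the longest run of bases that both members of a pair share, which is 70 bases for CCL3 and CCL3L3, 225 bases for CFC1 and CFC1B, and 28 bases for SFTPA1 and SFTPA2. The windows are chr17:36090144-36090393 on the minus strand for CCL3, chr17:36196759-36197008 on the minus strand for CCL3L3, chr2:130599576-130599825 on the minus strand for CFC1, chr2:130520972-130521221 on the plus strand for CFC1B, chr10:79610689-79610938 on the plus strand for SFTPA1 and chr10:79560408-79560657 on the minus strand for SFTPA2. No window was tested for a factor's binding here.
CCL3: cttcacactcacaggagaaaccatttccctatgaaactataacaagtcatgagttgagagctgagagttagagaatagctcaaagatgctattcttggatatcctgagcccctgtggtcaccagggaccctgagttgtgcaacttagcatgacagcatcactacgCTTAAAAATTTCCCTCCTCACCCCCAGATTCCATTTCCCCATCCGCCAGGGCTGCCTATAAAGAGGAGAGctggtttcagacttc
CCL3L3: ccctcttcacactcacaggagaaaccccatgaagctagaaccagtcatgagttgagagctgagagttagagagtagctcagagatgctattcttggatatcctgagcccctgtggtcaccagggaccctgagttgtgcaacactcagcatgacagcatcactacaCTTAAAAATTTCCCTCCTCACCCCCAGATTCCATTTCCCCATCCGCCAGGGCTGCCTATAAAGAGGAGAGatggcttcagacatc
CFC1: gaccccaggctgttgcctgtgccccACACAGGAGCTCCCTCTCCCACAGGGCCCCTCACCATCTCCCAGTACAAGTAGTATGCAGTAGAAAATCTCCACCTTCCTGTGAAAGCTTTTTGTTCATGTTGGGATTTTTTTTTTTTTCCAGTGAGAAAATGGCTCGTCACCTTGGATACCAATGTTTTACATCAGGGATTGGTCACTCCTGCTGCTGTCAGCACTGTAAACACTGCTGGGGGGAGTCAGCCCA
CFC1B: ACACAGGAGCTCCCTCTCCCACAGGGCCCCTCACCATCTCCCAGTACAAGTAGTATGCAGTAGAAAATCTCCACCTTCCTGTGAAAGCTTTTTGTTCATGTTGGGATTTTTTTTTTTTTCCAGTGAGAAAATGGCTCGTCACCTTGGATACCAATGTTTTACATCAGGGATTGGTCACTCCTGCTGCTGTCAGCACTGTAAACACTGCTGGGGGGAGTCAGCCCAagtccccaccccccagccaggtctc
SFTPA1: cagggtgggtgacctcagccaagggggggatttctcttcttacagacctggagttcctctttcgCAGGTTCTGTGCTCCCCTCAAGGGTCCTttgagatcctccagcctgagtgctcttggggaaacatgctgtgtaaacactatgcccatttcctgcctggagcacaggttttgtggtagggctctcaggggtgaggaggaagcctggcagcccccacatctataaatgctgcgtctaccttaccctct
SFTPA2: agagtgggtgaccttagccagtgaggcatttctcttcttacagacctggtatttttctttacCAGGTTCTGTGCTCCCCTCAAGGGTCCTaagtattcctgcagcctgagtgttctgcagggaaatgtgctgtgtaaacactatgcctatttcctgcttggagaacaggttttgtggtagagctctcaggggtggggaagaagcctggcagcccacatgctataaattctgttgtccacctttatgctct

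Gene Ontology terms come from the deposited table, where 106 members had a cellular component, 97 a molecular function and 96 a biological process. Shares below are of annotated genes, beside the share among all annotated genes at the CPM threshold, with no test. The members had lower levels in the DR-labelled library than those genes, with medians of 13.1 and 41.2 CPM. The term extracellular space was held by 16 members, or 15.1%, against 4.13% of the genes at the threshold. Proteinaceous extracellular matrix was held by 9 members, or 8.49% against 0.560%, and they were ADAMTS2, BCAN, EMILIN1, GPC4, NDNF, SFTPA1, SFTPA2, SMOC1 and SPARC. Extracellular matrix organization was held by 6, or 6.25% against 0.502%, and they were CSGALNACT1, EMILIN1, ITGA8, NDNF, SMOC1 and TGFBI.

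Integral component of plasma membrane was held by 13 members, or 12.3% against 4.82%, among them HRH2, XCR1, IL2RG, ROR2 and GJA1. Calcium ion binding was held by 10 members, or 10.3% against 2.77%, which were ADAM8, ANXA6, C1R, CDH4, CPS1, NCALD, RYR2, SMOC1, SPARC and SYTL2. Extracellular exosome was held by 29 members, or 27.4% against 17.5%. Immune response was held by 5 members, CCL3L1, CCL3L3, HRH2, IL2RG and RGS1, or 5.21% against 0.936%. The broad terms cytosol and nucleus had lower shares among the members, at 15.1% against 24.8% and 14.2% against 18.2%. Other terms for the cell interior went both ways. Mitochondrion stood at 2.83% against 5.87%, lysosomal membrane at 5.66% against 2.12%, and endoplasmic reticulum membrane at 5.66% against 5.17%.

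Smaller terms were held by families already described. Chemokine activity was held by CCL3, CCL3L1 and CCL3L3, Rab guanyl-nucleotide exchange factor activity by DENND1C, DENND2C and ST5, and metalloendopeptidase activity by ADAM8, ADAM28 and ADAMTS2. Each of these terms stood at 3.09% of the members, against 0.134%, 0.279% and 0.454% of the genes at the threshold. Other terms with 3 members were nearer the background. GTPase activator activity and protein complex binding each stood at 3.09%, against 2.15% and 2.01%. Axon guidance was held by 5 members, CDH4, DPYSL3, FEZF1, GFRA1 and KCNQ3, or 5.21% against 1.97%. Heart development was held by GJA1, GNAQ, PDLIM3 and SPARC, or 4.17% against 0.925%. Copies with shared sequence count separately in these figures, as in the chemokine term.

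**Figure D3:**
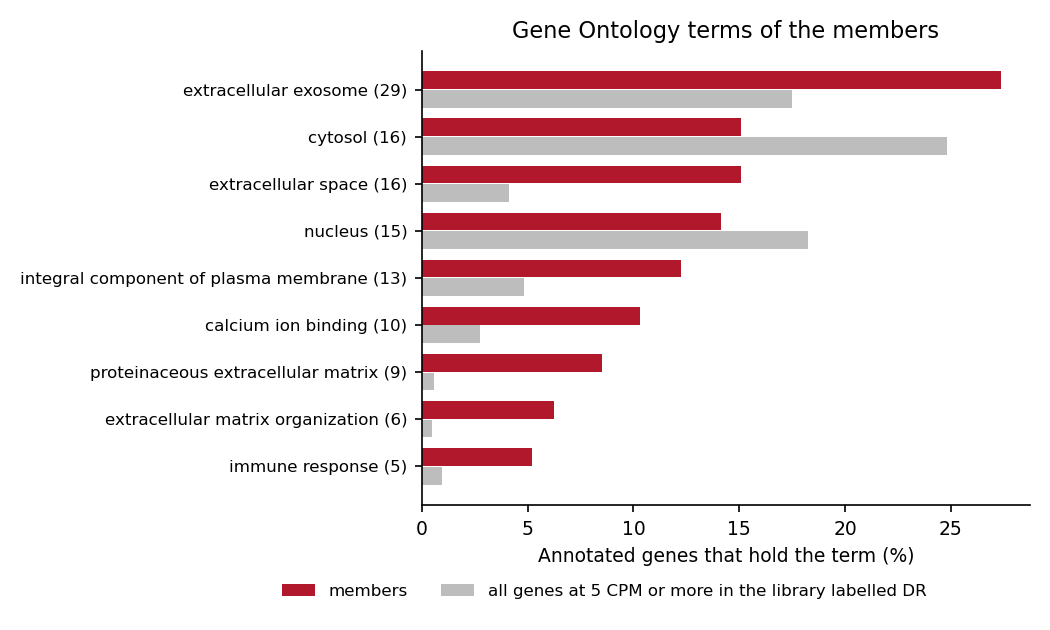
Percent of annotated genes that hold each of 9 Gene Ontology terms, for the members (red) and for all genes with at least 5 CPM in the DR-labelled library (grey), with the number of members in brackets. Proteinaceous extracellular matrix stands at 8.49% and 0.560%, and cytosol at 15.1% and 24.8%.

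Genes that met the same thresholds in the opposite direction were taken for comparison. They were 79 of the 10858 genes with at least 5 CPM in the WT-labelled library, or 0.728%. Shares are given beside those of all annotated genes at 5 CPM in the WT-labelled library. Proteinaceous extracellular matrix was held by 4 of 66 annotated genes, or 6.06% against a background of 0.514%, extracellular space by 7, or 10.6% against 4.04%, and integral component of plasma membrane by 10, or 15.2% against 4.71%. Calcium ion binding was held by 1 of 68, or 1.47% against 2.67%. Anchored component of membrane, held by 6 members or 5.66%, was held by 1 of 66, or 1.52% against 0.191%. Extracellular matrix organization and immune response were held by none of 54 annotated genes, with backgrounds of 0.422% and 0.833%. The terms of the members and of these genes were not tested against each other.

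Of 370 genes with counts in the gene families examined as lists, 4 were members, or 1.08%, against 0.635% of all counted genes. Of the 145 at the CPM threshold these were 2.76%, against 1.04%. None of 41 TNF and TNF receptor superfamily genes, 50 SOX and FOX factors, 40 TGF-beta and BMP genes, 39 collagens, 26 keratins, 22 EPH receptors and ephrins and 17 netrin, slit and robo genes with counts was a member. In both the ephrin and the netrin lists 1 gene met the mirrored thresholds, EPHB2 and DCC. CDH4, IL2RG, HEYL and KCNQ3 were the members found in these lists, and at such shares a count of 0 or 1 says nothing about a family.

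The place of the members along the chromosomes was not used to choose them. Neighbours were taken as the nearest protein-coding gene with at least 10 counts on each side, in the order of RefSeq on GRCh38.p14, and 114 members could be placed. Of these, 8 had another member as a neighbour, or 7.02%, against 1.39% of all genes at the CPM threshold. The pairs were CFC1 and CFC1B, SFTPA1 and SFTPA2, ASTN1 and BRINP2, and SEPT10 and SOWAHC. The first pairs named share transcript sequence, at 86.9% for CFC1 and 22.4% for SFTPA1, while ASTN1 and BRINP2 had no shared word.

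Over 16204 genes with at least 10 counts, 1261, or 7.78%, were higher in the DR-labelled library by at least 1 on the log2 scale of CPM plus 0.5. At least 1 neighbour past that value stood beside 43 members, or 37.7%, against 14.4% of all genes at the CPM threshold. With a limit of 2 on the log2 scale, the counts were 24 members, or 21.1%, against 3.90%. Without the chosen genes as neighbours, 38 members, or 33.3%, had a neighbour past 1, against 13.1%. A neighbour lower by at least 1 stood beside 4 members, GSTM2, MAP9, SCN3A and ZNF521, or 3.51% against 6.96%. Neighbouring genes can share regulation and reads, so the members are not independent points.

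Several of these neighbours are relatives of the member beside them. OAS1 and OAS2 flank OAS3 and had 31.1 against 11.98 CPM and 42.0 against 8.70 CPM. RGS2, next to RGS1, had 19.3 against 2.95 CPM. SLFN13, next to SLFN12, had 99.9 against 14.1 CPM, and APOBEC3G, next to APOBEC3H, had 45.5 against 18.8 CPM. CCL4 and CCL4L2, chemokines beside CCL3L3, had 1.77 against 0.127 CPM and 3.79 against 0.0994 CPM. These relatives were named from neighbours past 1 on the log2 scale. Other relatives beside members differed less. C1S and C1RL beside C1R were at 0.355 to 0.366, and CXCR6 and CCR1 beside XCR1 at -0.533 to 0.339. MARC1 beside MARC2 was at 0.616 and RGS18 beside RGS1 at 0.664. CCL16 beside CCL3 was at -0.299, and CDH26 beside CDH4 and CD84 beside SLAMF6 were also below 1. The relatives named on either side are not a full list, so the balance between these cases was not measured. Relatives lower by at least 1 were GSTM1 beside GSTM2, at -2.12, and SCN2A beside SCN3A, at -3.47 on that scale.

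Other neighbours are no relatives. TNFAIP3, an inhibitor of NF-kB next to PERP, had 187 against 36.2 CPM. SH3PXD2A, next to NEURL1, had 44.2 against 5.64 CPM, and JAKMIP2, next to DPYSL3, had 42.4 against 9.76 CPM. C1orf115, next to MARC2, had 3.54 CPM against 0 counts, and MOCS1, next to DAAM2, had 3.46 CPM against 1 count. The 43 members with a neighbour at or past 1 on the log2 scale were 37.7% of those placed. The larger part, SPARC, EYA4, WLS, GJA1 and MAL2 among them, stood between genes that were each below 1.

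**Figure D4:**
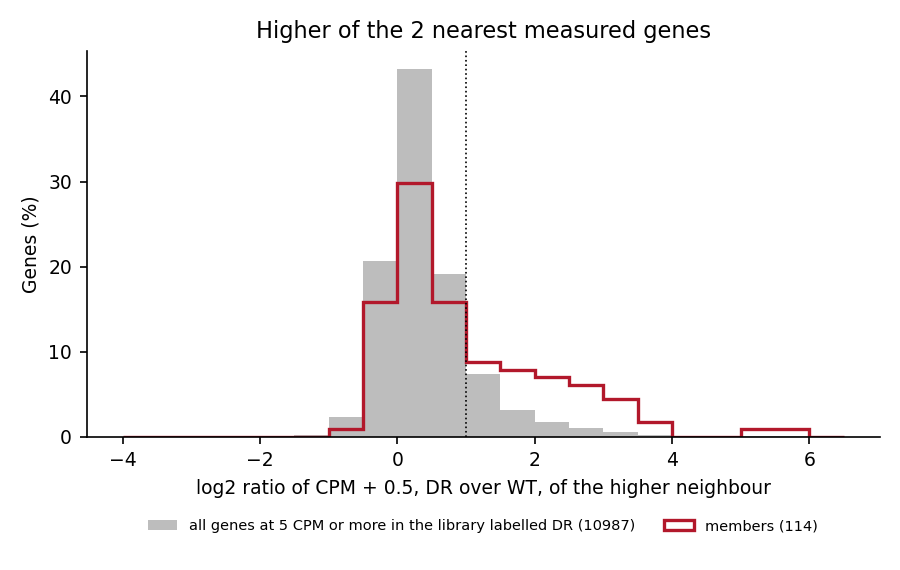
Distribution of the log2 ratio of CPM plus 0.5, DR-labelled over WT-labelled library (x axis), of the higher of each gene's nearest measured genes, as a percent of genes (y axis), for 114 members (red line) and 10987 genes with at least 5 CPM in the DR-labelled library (grey). The dotted line marks 1, which 37.7% of the members and 14.4% of the grey genes reach.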

How the data were processed

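The authors deposited 1 table of 18930 genes with the estimated count of each gene in each library, gene length and annotation. It also holds the authors' log2 ratio, p-value, q-value and up or down marks, which were not used. Of the genes, 663 had no count. The submitters' processing notes name Bowtie 0.12.2 and hg19. The counting tool, annotation and strand setting are not given in the sources used here. Reads of a gene and of an overlapping or antisense gene therefore cannot be told apart.

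From the deposited estimated counts, CPM was computed on the column sums, 54878355 and 35294670, with Python 3.11.15, pandas 2.3.3, NumPy 2.4.6 and SciPy 1.17.1. Estimated counts were rounded for intervals and for the size factors of R 4.3.3 with edgeR 4.0.16 and DESeq2 1.42.0, whose TMM factors were 1.01 and 0.988. Counting intervals used the exact Clopper-Pearson method at 95% on the DR-labelled library's share of a gene's counts. They and the floor of 3 counts cover counting error only, since reads carry no molecular identifiers. With 1 library per group no quasi-likelihood fit was possible, and no p-value is given.

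The members and all gene lists were chosen with earlier results of these data known, and roles were assigned from general knowledge after the members were known. Values are given for the 20 members with the highest CPM, the 10 with the largest ratio, the 3 with the smallest, the 3 genes outside each threshold, members that share a symbol stem, and the Gene Ontology groups described. Any other member may also be named, and 1 member of the receptor and signalling group is counted but not reported here. Listed genes were named where they were members or among the 2 highest of their list. SOX10, TYRP1, MC1R, MS4A1 and the neighbouring genes were named after their values were seen.

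Gene IDs were matched to RefSeq on GRCh38.p14, which served for current names, chromosome Y and gene order. For that order, 79 genes without a GENCODE release 29 position within 1000000 bases of the RefSeq position were left out, 2 of them members. Upstream sequences were found for 90 of 116 members, or 77.6%, below the 80% set as the minimum, so no share of promoters with a sequence feature is given. Alternatives were other scalings, pseudocounts, filters, fold thresholds and backgrounds, per-length shares and leaving out fractional counts. Summing of gene copies was added after seeing the data.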

Additional observations from a re-analysis of the deposited data

How the results depend on the processing

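The number of members moved by over 1.5 times under 6 of the alternatives. Against 116 members, it was 51 with a pseudocount of 1 CPM, 74 at a minimum of 10 CPM, 238 without a minimum CPM, 249 at 4-fold, 55 at 16-fold and 64 without genes that have fractional counts. It stayed within 1.5 times under TMM scaling (113), DESeq2 size factors (111), a pseudocount of 0.5 CPM (82), the lower interval bound at 8-fold (93), per-length shares (98) and summed copies (108), the last added after seeing the data. Which genes entered or left was not compared. The share of proteinaceous extracellular matrix was 15.1 times that of the genes at the CPM threshold, and 6.70 times that of all genes with counts. No paired analysis was possible because each group holds 1 library, and no replicate could be left out. The comparison of CpG-rich promoters was not run, since too few members had a sequence. Ratios of members with 3 or fewer counts in the WT-labelled library are limited by depth.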
